A study of Homo sapiens with 10 samples.

Results

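The replication-dependent histone genes are the genes of the HIST1, HIST2 and HIST3 clusters, and they were taken as every row of the deposited gene tables whose symbol starts with HIST1H, HIST2H or HIST3H. The rule found 71 genes among the 25275 symbols of each table: 6 of linker histone H1, 17 of H2A, 20 of H2B, 14 of H3 and 14 of H4. The HIST1 cluster holds 56 of them, HIST2 holds 12 and HIST3 holds 3. RNA-seq was done in OCI-LY10 and TMD8, established human lymphoma lines of the activated B-cell-like kind of diffuse large B-cell lymphoma. Each line has 3 RNA-seq samples: STAT3 shRNA 16, STAT3 shRNA 10 and a control shRNA, and in all of them the shRNA was switched on for 2 days with doxycycline at 20 ng/ml. There is 1 library per shRNA and line, so no condition has a replicate. The 3 TMD8 columns bear no sample names and are therefore given by position, as columns 1, 2 and 3, with no shRNA attached. Another 4 samples, of STAT3 ChIP-seq, are not analysed here.

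Histones package DNA: pairs of H2A, H2B, H3 and H4 form the core of the nucleosome, and H1 binds the linker DNA between cores. The genes of these clusters are transcribed mainly in S phase, when new DNA needs new histones, under the coactivator NPAT. Most of their mRNAs end in a stem-loop bound by SLBP instead of a poly(A) tail, although some of the genes also give polyadenylated transcripts in differentiated or non-dividing cells. Many members of a class encode the same or nearly the same protein from closely similar sequence. How reads were shared among such copies is not given in the sources used here, so the value of a single member is uncertain.

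Promoters of 4 members are shown because 2 of them, HIST1H1C and HIST1H2BK, had the highest levels, and the other 2, HIST1H2BH and HIST1H2BE, had the largest differences between STAT3 shRNA and control shRNA in either direction. Each is the 250 bases before the gene start, on the gene's own strand, from RefSeq (GRCh38.p14). Capitals mark exact matches, on either strand, to the octamer ATTTGCAT that POU2F1 binds, to CCAAT, to TATAAA and to AAACACA, the box named after H1 genes. In HIST1H2BK matches to TATAAA on opposite strands overlap. The positions are chr6:26056471-26056720 on the minus strand for HIST1H1C and chr6:27146859-27147108 on the minus strand for HIST1H2BK. They are chr6:26251364-26251613 on the plus strand for HIST1H2BH and chr6:26183511-26183760 on the plus strand for HIST1H2BE.
HIST1H1C: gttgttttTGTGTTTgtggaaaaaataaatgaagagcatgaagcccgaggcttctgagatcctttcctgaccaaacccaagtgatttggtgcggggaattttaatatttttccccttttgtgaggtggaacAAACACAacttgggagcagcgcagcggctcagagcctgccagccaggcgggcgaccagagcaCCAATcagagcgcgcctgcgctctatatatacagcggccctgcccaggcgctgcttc
HIST1H2BK: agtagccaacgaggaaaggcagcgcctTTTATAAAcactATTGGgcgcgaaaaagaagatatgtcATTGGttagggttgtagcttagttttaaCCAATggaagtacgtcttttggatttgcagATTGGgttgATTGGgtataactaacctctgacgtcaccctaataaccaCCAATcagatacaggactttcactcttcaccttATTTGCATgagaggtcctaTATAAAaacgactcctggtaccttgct
HIST1H2BH: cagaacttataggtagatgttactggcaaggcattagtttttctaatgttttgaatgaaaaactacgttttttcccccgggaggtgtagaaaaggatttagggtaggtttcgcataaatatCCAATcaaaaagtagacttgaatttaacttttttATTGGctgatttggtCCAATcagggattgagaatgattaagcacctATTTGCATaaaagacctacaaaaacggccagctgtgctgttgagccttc
HIST1H2BE: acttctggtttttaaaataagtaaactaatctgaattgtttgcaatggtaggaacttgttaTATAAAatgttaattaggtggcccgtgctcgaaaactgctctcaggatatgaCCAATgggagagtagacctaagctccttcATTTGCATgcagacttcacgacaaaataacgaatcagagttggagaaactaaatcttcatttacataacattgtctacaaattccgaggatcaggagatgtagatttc
The octamer starts 46 bases before the gene start in HIST1H2BK, 49 in HIST1H2BH and 108 in HIST1H2BE.

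All 71 members matched a RefSeq gene by an older name, and 63 of them have an entry in its promoter table, with 250 bases before and 50 after the gene start. Over these windows the octamer was found in 14 of 18 H2B and 11 of 15 H2A promoters, in 1 of 12 H3 promoters, and in 0 of 6 H1 and 0 of 12 H4 promoters, beside 1.80% of all 27305 promoters. CCAAT was found in every H1, H2A, H2B and H3 promoter of the table and in 3 of 12 H4 promoters, beside 35.7% of all promoters. AAACACA was found in 6 of 6 H1, 1 of 15 H2A, 2 of 12 H3, 0 of 18 H2B and 0 of 12 H4 promoters, beside 5.76% of all promoters. TATAAA was found in 41 of 63 members and in 11.95% of all promoters. By class it was in 3 of 6 H1, 11 of 15 H2A, 12 of 18 H2B, 9 of 12 H3 and 6 of 12 H4 promoters. The octamer and AAACACA thus differed more between classes than TATAAA did; a match is not evidence of binding.

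STAT3, the target of the shRNAs, stood at 10.6 FPKM with shRNA 16 and 11.1 FPKM with shRNA 10, against 16.5 FPKM with control shRNA, in OCI-LY10 (log2 change −0.56, SE 0.10, limma adjusted p = 0.0465). The call was lost under 3 alternatives, with adjusted p of 0.0508 (limma, pseudocount of 0.1 FPKM), 0.0688 (no filter on low values) and 0.0673 (small RNA genes left out). STAT3 stood at 120, 24.3 and 22.5 FPKM in TMD8 columns 1, 2 and 3. FPKM divides the fragments of a gene by its length and by the size of the library, so levels can be set side by side between genes, but read depth is not given. The OCI-LY10 control library stands apart. Over 10944 genes other than the histone genes, the OCI-LY10 control library correlated with the shRNA 16 and shRNA 10 libraries of the same line at r = 0.845 each, and with the TMD8 columns at r = 0.939, 0.943 and 0.965 (Pearson's r on the log2(FPKM + 1) scale; the points are genes, which are not replicates). The shRNA 16 and shRNA 10 libraries correlated at 0.994 with each other and at 0.799 to 0.820 with the TMD8 columns. Every difference between STAT3 shRNA and control below is thus also a difference between libraries whose other genes differ widely, and the shRNA and the library cannot be told apart. Whether that library is the sample its label names was not tested. Markers of B cells were present in all 6 libraries, with 8 listed genes summing to between 840 and 2822 FPKM, whereas those of T and NK, myeloid and erythroid cells summed to at most 1.46 FPKM and those of epithelial and stromal cells to between 5.58 and 10.2 FPKM. Markers also differed between STAT3 shRNA and control in OCI-LY10, where 6 of the 8 B-cell genes rose and 1 fell in the same limma fit. POU2AF1, the coactivator of octamer-binding factors, stood at 181 and 197 FPKM with shRNA 16 and shRNA 10, against 2.44 FPKM with control shRNA, and BLK, a B-cell kinase, at 93.5 and 87.9 FPKM against 4.94 FPKM. The epithelial marker EPCAM stood at 4.39 FPKM with each shRNA and was listed at 0 with control shRNA, and COL1A1, a stromal collagen, was at 0 and 0.00823 FPKM against 3.60 FPKM. These 4 markers were picked with their values in view, and their part in the differences between STAT3 shRNA and control was not tested.

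Histone mRNA was abundant in OCI-LY10 and low in TMD8. The 71 members summed to 1195 FPKM with shRNA 16, 771 FPKM with shRNA 10 and 1158 FPKM with control shRNA in OCI-LY10, against 305, 247 and 192 FPKM in TMD8 columns 1, 2 and 3. Members at 1 FPKM or more numbered 53, 53 and 54 in the same OCI-LY10 libraries, against 34, 29 and 26 in the TMD8 columns. The median member stood at 12.2, 6.21 and 8.27 FPKM in OCI-LY10 and at 0.895, 0.606 and 0.613 FPKM in TMD8. In bulk samples, fewer cells in S phase and less histone mRNA per cell cannot be told apart. Recovery of RNAs without a poly(A) tail may also differ between the 2 tables, which may have been normalized separately. The part of either was not tested.

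**Figure D1:**
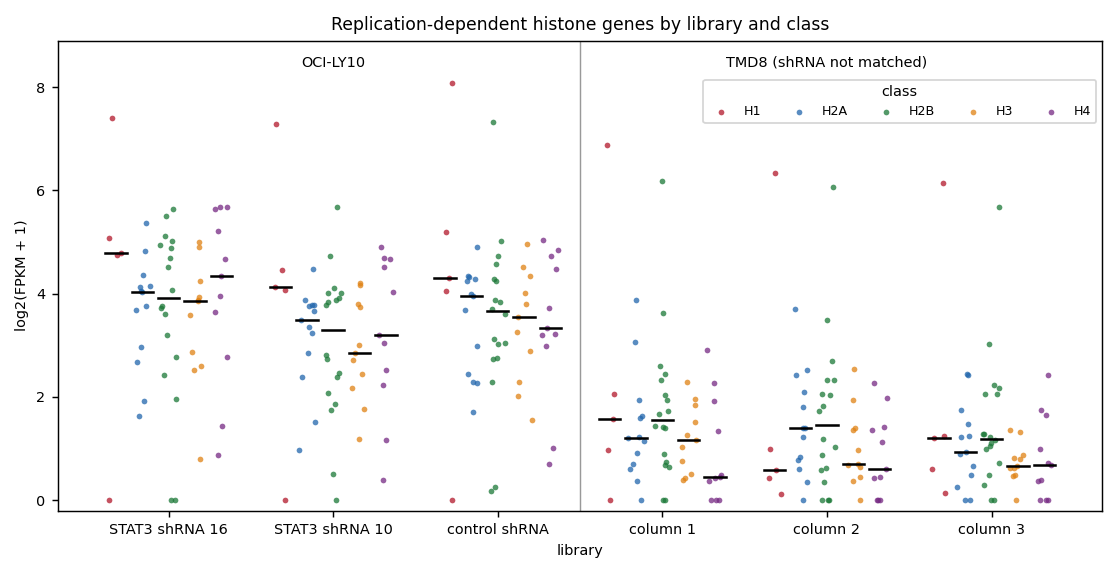
Level of each histone gene listed above 0 in any library, as log2(FPKM + 1), in the 3 OCI-LY10 libraries and the 3 TMD8 columns. Points are genes, coloured by class, and black bars are class medians. Every class median is higher in the OCI-LY10 libraries than in the TMD8 columns, while HIST1H1C, at 69.8 to 271 FPKM, and HIST1H2BK, at 48.8 to 160 FPKM, stay high in all 6.

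Of the members, 13 were listed at 0 in all 6 libraries: HIST1H1A, HIST1H2AA, HIST1H2APS1, HIST1H2BA, HIST1H4G, HIST2H2AA3, HIST2H3A, HIST2H3C, HIST2H4A, HIST2H4B, HIST3H2A, HIST3H2BB and HIST3H3. The list includes the whole HIST3 cluster and 5 of the 12 HIST2 members. A value of exactly 0 can be a failed estimate, and HIST2H3A and HIST2H3C, like HIST2H4A and HIST2H4B, are copies of each other. HIST1H2AA, HIST1H2BA and HIST3H3 are known from the testis, as is HIST1H1T, which was listed at 0.0874 and 0.0961 FPKM in TMD8 columns 2 and 3 and at 0 elsewhere. With HIST1H4J and HIST2H2BA, at most 1.01 and 0.199 FPKM in any library, 16 members stayed below a mean of 1 FPKM over the OCI-LY10 libraries and were not tested, and 55 passed. The medians over members given for OCI-LY10 comparisons are over these 55.

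A few genes made up much of the sum. HIST1H1C, a somatic linker histone, stood at 168 FPKM with shRNA 16, 154 FPKM with shRNA 10 and 271 FPKM with control shRNA, and at 117, 79.8 and 69.8 FPKM in TMD8 columns 1, 2 and 3. HIST1H2BK, an H2B gene, stood at 48.8, 50.4 and 160 FPKM in the OCI-LY10 libraries and at 71.6, 65.8 and 50.6 FPKM in the TMD8 columns. Together they made up 18.1%, 26.5% and 37.2% of the member sum in OCI-LY10, against 61.9%, 58.8% and 62.5% in TMD8. Both belong to a list of 7 members reported to give polyadenylated transcripts as well (HIST1H1C, HIST1H2AC, HIST1H2BC, HIST1H2BD, HIST1H2BK, HIST2H2BE and HIST1H4H). The list need not be complete, and the members outside it were not checked for such transcripts. The 7 listed members made up 28.1%, 35.5% and 45.5% of the sum in OCI-LY10, against 74.1%, 72.0% and 71.9% in TMD8. HIST1H1C and HIST1H2BK held most of this share in every library, so it is not a separate result about the rest of the list. The composition of histone mRNA thus differed between the tables as well as its amount. The labels name a TruSeq RNA kit; whether mRNA was selected by its poly(A) tail is not stated in the sources used here.

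Among the other linker histones, HIST1H1B stood at 33.0, 21.1 and 35.6 FPKM in OCI-LY10 with shRNA 16, shRNA 10 and control shRNA, and at 1.99, 0.977 and 1.37 FPKM in TMD8. HIST1H1D stood at 26.7, 16.4 and 15.5 FPKM in OCI-LY10 and at 0.974, 0.346 and 0.524 FPKM in TMD8. HIST1H1E stood at 26.1, 15.9 and 18.7 FPKM in OCI-LY10 and at 3.15, 0.499 and 1.29 FPKM in TMD8. In all 3 genes every OCI-LY10 library was above every TMD8 column, and shRNA 16 was above shRNA 10.

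The H2A genes were led by HIST1H2AE, with 40.5, 21.2 and 28.8 FPKM in OCI-LY10 with shRNA 16, shRNA 10 and control shRNA, and 7.36, 4.77 and 4.45 FPKM in TMD8. HIST2H2AC, of the HIST2 cluster, had 27.4, 13.8 and 11.8 FPKM in OCI-LY10, against 1.32, 1.33 and 2.37 FPKM in TMD8, and HIST1H2AI had 19.5, 12.6 and 18.9 FPKM, against 1.20, 3.25 and 1.32 FPKM. HIST1H2AC, a gene with polyadenylated transcripts, differed less, with 15.3, 12.8 and 18.5 FPKM in OCI-LY10 and 13.8, 12.1 and 4.39 FPKM in TMD8. Its groups overlapped, since TMD8 column 1 was above shRNA 10.

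Among H2B genes below HIST1H2BK, HIST1H2BG had 44.4, 25.4 and 25.4 FPKM in OCI-LY10 with shRNA 16, shRNA 10 and control shRNA, and 2.17, 4.00 and 3.53 FPKM in TMD8. HIST1H2BC had 33.9, 15.1 and 17.97 FPKM in OCI-LY10 and 3.08, 3.13 and 1.07 FPKM in TMD8. HIST1H2BD had 29.9, 13.4 and 31.6 FPKM in OCI-LY10 and 11.4, 10.3 and 7.12 FPKM in TMD8. HIST1H2BC and HIST1H2BD, both with polyadenylated transcripts, were more than 2-fold as high with shRNA 16 as with shRNA 10 (ratios of 2.24 and 2.23). HIST2H2BE, also of that subset, had 4.41, 2.66 and 7.12 FPKM in OCI-LY10 and 5.08, 5.48 and 3.15 FPKM in TMD8, so that the lines overlapped.

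The 4 leading H3 genes ran close together. HIST1H3C had 31.1, 17.4 and 30.3 FPKM in OCI-LY10 with shRNA 16, shRNA 10 and control shRNA, against 2.57, 0.631 and 1.57 FPKM in TMD8. HIST1H3B had 29.1, 16.9 and 21.9 FPKM in OCI-LY10, against 2.88, 2.83 and 0.748 FPKM in TMD8. HIST1H3H, at 17.98, 12.4 and 19.4 FPKM, and HIST1H3J, at 14.4, 12.9 and 12.9 FPKM, were likewise above all TMD8 columns, where they reached at most 4.84 and 1.57 FPKM. Of these, HIST1H3J varied least between the OCI-LY10 libraries.

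With shRNA 16, HIST1H4C and HIST1H4B had the highest levels after HIST1H1C. HIST1H4C had 50.2, 24.6 and 25.6 FPKM in OCI-LY10 with shRNA 16, shRNA 10 and control shRNA, against 1.53, 1.18 and 2.15 FPKM in TMD8. HIST1H4B had 49.98, 29.1 and 27.8 FPKM in OCI-LY10, against 0.349, 1.56 and 0.652 FPKM in TMD8. HIST1H4E had 48.8, 22.0 and 32.0 FPKM in OCI-LY10, against 6.49, 3.81 and 4.34 FPKM in TMD8. HIST1H4H, the H4 member of the polyadenylated subset, had 36.4, 24.9 and 21.3 FPKM in OCI-LY10, against 3.80, 1.68 and 2.35 FPKM in TMD8. In each of these 4 genes shRNA 16 was the highest of all 6 libraries. The other 23 members tested ranged over 0.616 to 31.4 FPKM in the OCI-LY10 libraries and 0 to 4.34 FPKM in the TMD8 columns. All 23 were higher in every OCI-LY10 library than in every TMD8 column, beside 21.3% of the genes whose mean reached 1 FPKM in either line. The members tested were chosen by their level in OCI-LY10, so this count is a description. In 22 of the 23 shRNA 16 was above shRNA 10, as it was in 5591 of all 11162 genes tested.

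The first comparison asked whether histone genes differed between STAT3 shRNA and control shRNA in OCI-LY10. They showed no common direction: 3 members rose, 4 fell and 48 of 55 did not pass the test. Those that rose were HIST1H2BE, HIST1H2BO and HIST1H2AB, and those that fell were HIST1H2BH, HIST1H2BK, HIST2H2BC and HIST1H1C. The test was limma on log2(FPKM + 1) over 11162 genes with Benjamini-Hochberg adjustment at 0.05, 2 STAT3 shRNA libraries against 1 control library, and its p-values measure only the spread between the 2 shRNA libraries, which may be technical. The shares called, 5.45% higher and 7.27% lower, lie under those of all genes tested, 20.3% higher and 17.4% lower. The spread between the shRNA libraries was wide in the members, with 56.4% at least 1.5-fold higher with shRNA 16 than with shRNA 10. Over all genes tested that share was 2.55%. A lower share called is therefore not evidence that the members changed less than other genes. At an unadjusted p under 0.05, 5 members were higher and 5 lower, beside 29% and 23.3% of all genes tested. With small RNA genes left out and the rest rescaled, which moved the median of all genes by 0.13 on the log2 scale, 7 members were higher and 5 lower, beside 32.79% and 18.01% of all genes.

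Opposite differences of the largest size were found in 2 H2B genes. HIST1H2BH was listed at 0 FPKM with shRNA 16 and at 0.426 FPKM with shRNA 10, against 22.8 FPKM with control shRNA and 4.47, 3.15 and 3.17 FPKM in the TMD8 columns. Its log2 change was −4.32 (SE 0.29, limma adjusted p = 0.0137), and with a pseudocount of 0.1 FPKM the adjusted p was 0.0560. HIST1H2BE stood at 5.86 FPKM with shRNA 16 and 4.49 FPKM with shRNA 10, against 0.134 FPKM with control shRNA and 0, 0.272 and 0 FPKM in the TMD8 columns. Its log2 change was 2.44 (SE 0.19, limma adjusted p = 0.0164), and with no filter on low values the adjusted p was 0.0517. In both genes the control library was nearer, on the log2(FPKM + 1) scale, to the TMD8 columns than to the shRNA libraries, as it was over the other genes. Over the 58 members listed above 0 in any library the order was the reverse. There the control library correlated with shRNA 16 and shRNA 10 at r = 0.805 and 0.841 (Pearson's r). With TMD8 columns 1, 2 and 3 it correlated at 0.761, 0.706 and 0.735. The promoters of HIST1H2BH and HIST1H2BE, printed above, both hold the octamer and CCAAT. In gene order HIST1H2BH lies between HIST1H3F and HIST1H3G, which stood at 13.8 and 13.5 FPKM with shRNA 16, 5.57 and 6.99 FPKM with shRNA 10, and 10.7 and 15.1 FPKM with control shRNA. HIST1H2BE lies between HIST1H2BD and HIST1H4D, of which HIST1H4D had 19.3 and 7.21 FPKM with shRNA 16 and shRNA 10, against 8.14 FPKM with control shRNA. The neighbours were thus detected in all 3 libraries.

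The 2 most abundant members fell as well. HIST1H2BK was at 30.6% of control with shRNA 16 and at 31.6% with shRNA 10, a log2 change of −1.67 (SE 0.09, limma adjusted p = 0.0104) that passed under every alternative that gave a test. HIST1H1C was at 61.9% of control with shRNA 16 and at 56.9% with shRNA 10 (log2 change −0.75, SE 0.11, limma adjusted p = 0.0313, or 0.0649 with no filter on low values). In both genes the shRNA libraries lay close together and below the control library. HIST2H2BC, annotated as a pseudogene, had 2.90 and 2.37 FPKM with shRNA 16 and shRNA 10, against 5.64 FPKM with control shRNA, and between 3.71 and 4.05 FPKM in the TMD8 columns (log2 change −0.87, SE 0.15, limma adjusted p = 0.0411, or 0.0521 with a pseudocount of 0.1 FPKM and 0.0958 with no filter).

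The remaining members that rose changed less. HIST1H2BO had 12.5 and 12.7 FPKM with shRNA 16 and shRNA 10, against 7.76 FPKM with control shRNA, and 1.62, 0 and 1.14 FPKM in TMD8 (log2 change 0.64, SE 0.10, limma adjusted p = 0.0360, or 0.0540 with no filter on low values). HIST1H2AB had 6.85 and 6.21 FPKM with shRNA 16 and shRNA 10, against 3.85 FPKM with control shRNA, and 0, 0.275 and 0 FPKM in TMD8. Its log2 change was 0.63 (SE 0.12, limma adjusted p = 0.0483), and the adjusted p was 0.0579 with median-of-ratios scaling, 0.0551 with a pseudocount of 0.1 FPKM and 0.0913 with no filter. HIST1H2AL, with 12.6 and 8.50 FPKM against 4.42 FPKM with control shRNA, missed the threshold (limma adjusted p = 0.0871) and passed it at 0.0155 with small RNA genes left out.

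**Figure D2:**
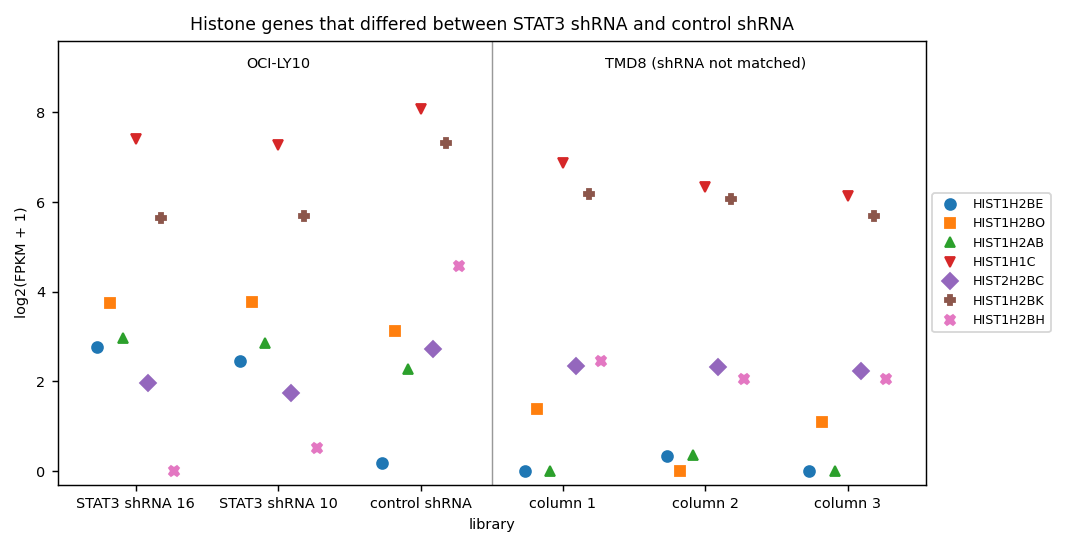
Levels, as log2(FPKM + 1), of the 7 histone genes that passed the limma test between STAT3 shRNA and control shRNA in OCI-LY10, in each OCI-LY10 library and TMD8 column; markers are genes, offset sideways for legibility. HIST1H2BH is at 0 and 0.426 FPKM with shRNA 16 and shRNA 10 and at 22.8 FPKM with control shRNA, and HIST1H2BE shows the opposite pattern.

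Counted without a test, 4 members were at least 1.5-fold higher with both STAT3 shRNAs than with control (HIST1H2AL, HIST1H2BE, HIST1H2BO and HIST2H2BF) and 6 were at least 1.5-fold lower (HIST1H1C, HIST1H2BH, HIST1H2BK, HIST1H3I, HIST2H2BC and HIST2H2BE). These are 7.27% and 10.9% of the 55, beside 20.1% and 17.2% of all genes tested. HIST2H2BF, an H2B gene, had 28.6 and 13.8 FPKM with shRNA 16 and shRNA 10, against 7.27 FPKM with control shRNA, and HIST1H3I had 4.72 and 2.42 FPKM against 8.61 FPKM. With small RNA genes left out there were 5 higher and 4 lower. The median log2 difference of the members was 0.39 with shRNA 16 and −0.32 with shRNA 10, each against the same control library, and 0.03 for their mean, beside 0.06 over all genes tested. The sign of the median for their mean depends on scaling: it was −0.042 with median-of-ratios scaling and −0.045 with quantile normalization. Over all genes tested the median moved too, to −0.0016 and 0.040 under the same scalings. Taken alone, shRNA 16 had 24 members at least 1.5-fold higher and 7 lower than control, beside 23.5% and 19.5% of all genes. Taken alone, shRNA 10 had 4 members higher and 21 lower, beside 23.5% and 20.1% of all genes.

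**Figure D3:**
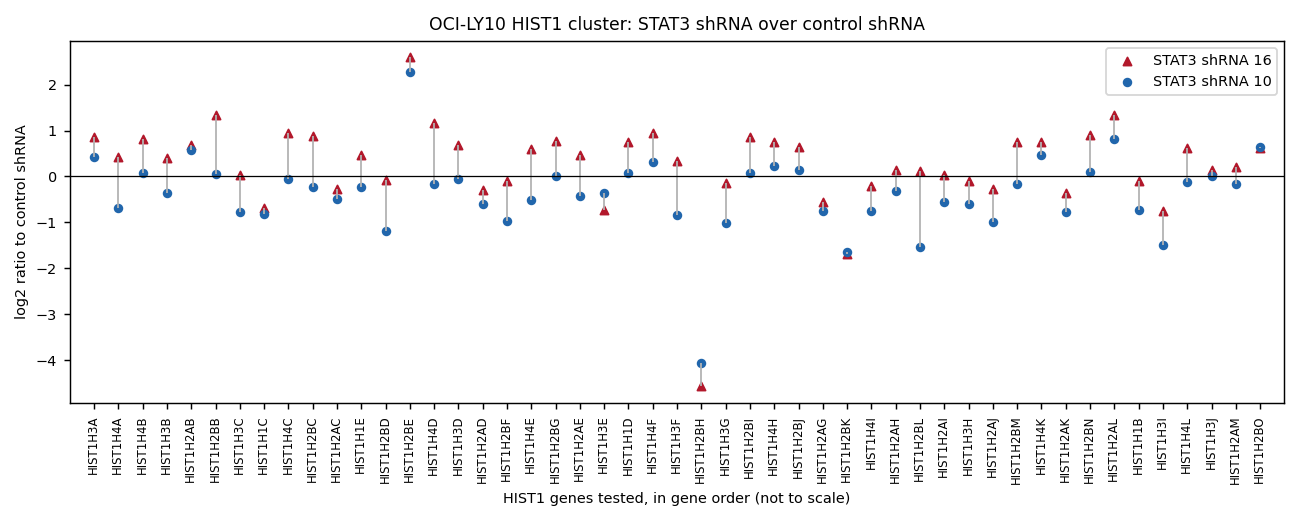
Log2 ratio of STAT3 shRNA 16 (triangles) and STAT3 shRNA 10 (circles) over control shRNA in OCI-LY10, on the log2(FPKM + 1) scale, for the 49 tested genes of the HIST1 cluster in gene order. Grey lines join the values of a gene; shRNA 16 lies above shRNA 10 in nearly every gene, and HIST1H2BE (log2 change 2.44) and HIST1H2BH (−4.32) stand out from their neighbours.

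The second comparison set the STAT3 shRNAs of OCI-LY10 against each other, which does not use the control library. Histone genes were higher with shRNA 16 than with shRNA 10 across all 5 classes. In 51 of 55 members shRNA 16 was above shRNA 10, and in 31 it was at least 1.5-fold higher on the log2(FPKM + 1) scale, or 56.4%, beside 2.55% of all genes tested. In 0 members it was at least 1.5-fold lower, beside 1.07% of all genes. The median log2 difference of the members was 0.66, beside 0.00 over all genes tested. With 1 library per shRNA there is no test of this difference. STAT3 itself was at nearly the same level in both libraries (10.6 and 11.1 FPKM).

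The difference reached every class and left out few members. At least 1.5-fold higher were 3 of 4 H1, 5 of 13 H2A, 10 of 17 H2B, 6 of 11 H3 and 7 of 10 H4 genes tested, with median log2 differences of 0.65, 0.46, 0.78, 0.74 and 0.75. HIST1H2BL had the largest ratio, 3.78, with 12.2 FPKM for shRNA 16 and 3.22 FPKM for shRNA 10. HIST1H4D, with 19.3 and 7.21 FPKM, had a ratio of 2.68, and HIST1H2BB, with 15.9 and 6.02 FPKM, a ratio of 2.64. The control library stood at 11.2 FPKM for HIST1H2BL and 5.72 FPKM for HIST1H2BB. In TMD8 columns 1, 2 and 3 HIST1H2BL had 1.72, 1.04 and 0.402 FPKM, HIST1H4D had 0, 0 and 0.613 FPKM and HIST1H2BB had 0.565, 0 and 0.221 FPKM. Within OCI-LY10, HIST1H2BL was low with shRNA 10, whereas HIST1H4D and HIST1H2BB were high with shRNA 16. The 4 members at which shRNA 16 was not above shRNA 10 were HIST1H2BH, HIST1H2BK, HIST1H2BO and HIST1H3E. Of these, HIST1H2BK (48.8 and 50.4 FPKM) and HIST1H2BO (12.5 and 12.7 FPKM) were nearly level, and HIST1H3E stood at 0.750 and 1.28 FPKM. Among the 7 members listed with polyadenylated transcripts 2 were at least 1.5-fold higher, and among the other 48 tested 29 were, with median log2 differences of 0.53 and 0.67. Just under and just over the threshold lay HIST2H2BE, at a log2 difference of 0.56, and HIST1H2AI, at 0.59.

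**Figure D4:**
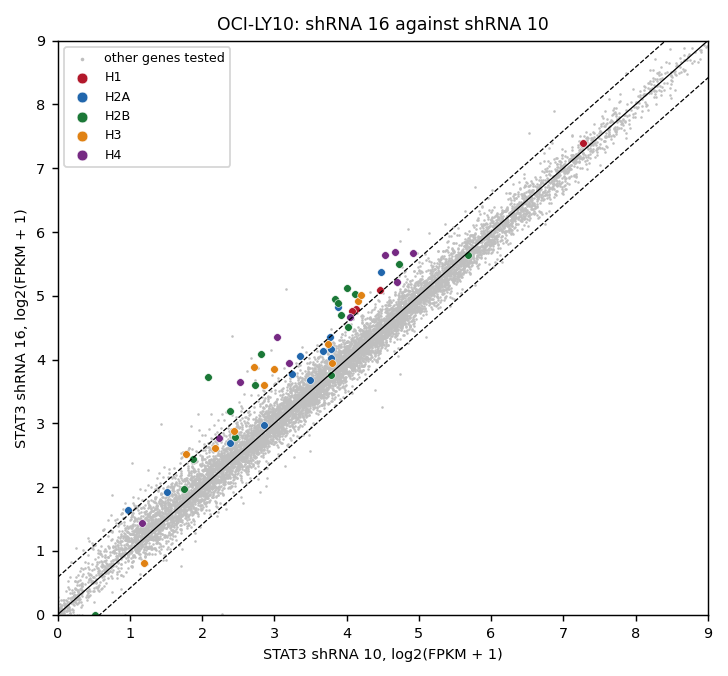
Level of each gene tested with STAT3 shRNA 16 against its level with STAT3 shRNA 10 in OCI-LY10, both as log2(FPKM + 1); small RNA genes are left out of the plot. Histone genes are coloured by class, other genes are grey, the solid line marks equality and dashed lines a 1.5-fold difference. Of 55 histone genes, 51 lie above the line of equality and 31 at or above the upper dashed line.

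Genes of DNA replication and of histone mRNA metabolism outside the clusters were counted in the same way. The 5 lists were S-phase and proliferation genes, histone gene transcription and 3′ processing, histone mRNA decay, histone chaperones, and replacement and other histone variants. The last list includes the H4 gene HIST4H4. In each list 0 genes tested were at least 1.5-fold higher or lower with shRNA 16 than with shRNA 10, beside 2.55% and 1.07% of all genes tested. Their median log2 differences were −0.13, −0.07, −0.08, −0.06 and 0.03. SLBP, which binds the histone stem-loop and was singled out after its values were seen, stood at 65.7 and 76.1 FPKM with shRNA 16 and shRNA 10. Short genes were counted too, a set chosen after the values were seen. Of 13 other protein-coding genes that span 350 to 1000 bases in RefSeq, 0 were at least 1.5-fold higher, beside 2.55% of all genes tested. Their median log2 difference was 0.01. With so few genes and so low a share a count of 0 says little, and the part of gene length was not tested.

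Some RNAs that lack a poly(A) tail were also higher with shRNA 16 than with shRNA 10. Of 6 such RNAs, chosen after their values were seen, 4 were at least 1.5-fold higher with shRNA 16, and their median log2 difference was 0.63. RMRP, the RNA of RNase MRP, stood at 956 FPKM with shRNA 16, 623 FPKM with shRNA 10 and 1212 FPKM with control shRNA. RPPH1, the RNA of RNase P, stood at 238, 116 and 438 FPKM in the same libraries, and SCARNA7, a small Cajal body RNA, at 26.3, 12.9 and 6.55 FPKM. MALAT1, at 13.1, 11.3 and 5.63 FPKM, and TERC, the telomerase RNA, at 6.53 and 6.10 FPKM with the shRNAs, differed less between them. Read depth also differed: relative to shRNA 10 it was 0.73 with shRNA 16 and 1.52 with control shRNA, from the step between low values. Small RNA genes made up 58.2% of the FPKM sum with shRNA 16, 57.9% with shRNA 10 and 49.1% with control shRNA. The part of depth and of recovery of RNAs without a tail in the histone difference was not tested.

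The third comparison set the lines side by side, without a test, because the 2 tables may have been normalized separately and the TMD8 columns are not matched to an shRNA. Histone genes were higher in OCI-LY10. Of 55 members, 49 were higher in all 3 OCI-LY10 libraries than in all 3 TMD8 columns, beside 21.3% of the 11794 genes whose mean reached 1 FPKM in either line. None were lower without overlap, a count of 0 beside 26.9% of those genes. Of the 55, 23 reached a mean of 1 FPKM in OCI-LY10 alone, the line where they are high, so the count over the 55 is a description. Among the 32 members that reached that mean over the TMD8 columns, a filter added after the data were seen, 27 were higher and 0 lower without overlap, beside 18.8% and 29.1% of the 10888 genes that did so. Without the OCI-LY10 control library the count was 50 of 55, beside 38.5% of all genes. The median log2 difference of the 55 members between the control library and TMD8 columns 1, 2 and 3 was 2.22, 2.43 and 2.59. Over all genes tested it was 0.00, −0.02 and −0.06. For shRNA 16 against the same columns the median of the 55 members was 2.68, 2.69 and 3.08, and for shRNA 10 it was 1.98, 2.11 and 2.44. These medians are a description too, because the 55 include the 23 that reached the mean in OCI-LY10 alone.

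The 6 members that overlapped were HIST1H2AC, HIST1H2BE, HIST1H2BH, HIST1H2BK, HIST2H2BC and HIST2H2BE. They include 3 of the 7 genes listed with polyadenylated transcripts and both genes with the largest differences between STAT3 shRNA and control. HIST1H2BK had a median of 50.4 FPKM over the OCI-LY10 libraries against 65.8 FPKM over the TMD8 columns (ratio 0.766), while HIST1H1C had a ratio of medians of 2.10. Of the other members leading their class, those with the widest gaps were HIST1H4B, HIST1H1D and HIST1H1B: HIST1H4B had a ratio of 44.7, HIST1H1D of 31.3 and HIST1H1B of 24.1. HIST1H4B and HIST1H1D averaged 0.854 and 0.615 FPKM over the TMD8 columns and reached the minimum of 1 FPKM in OCI-LY10 alone. Their ratios therefore divide by values near the floor and are a description.

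**Figure D5:**
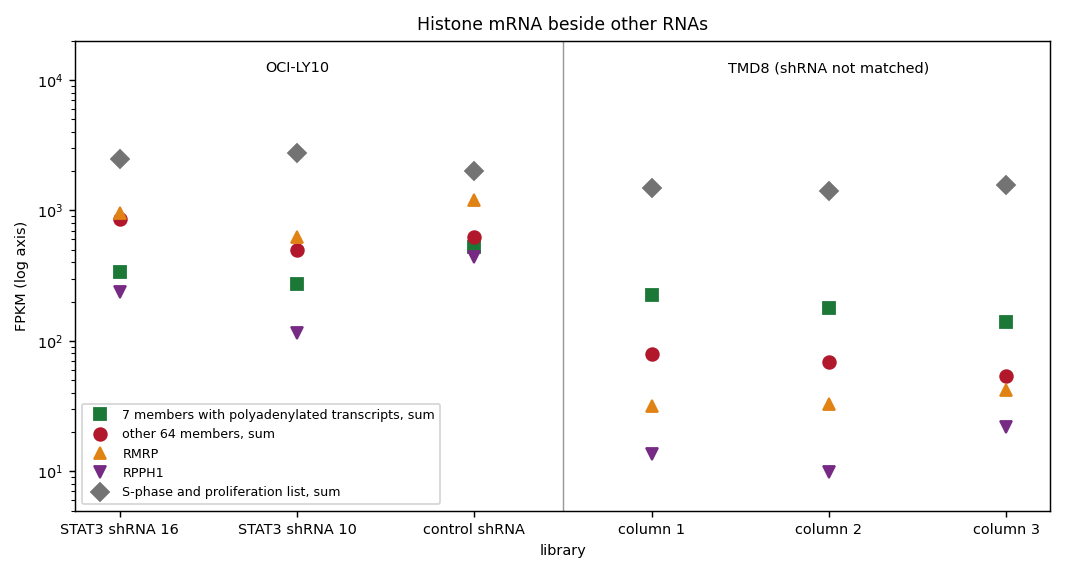
Sums of FPKM, on a log axis, of the 7 histone genes listed with polyadenylated transcripts, of the other 64 histone genes and of the S-phase and proliferation list, beside the levels of RMRP and RPPH1, in each OCI-LY10 library and TMD8 column. The 64 genes sum to 858, 497 and 630 FPKM with shRNA 16, shRNA 10 and control shRNA in OCI-LY10 and to 79.1, 69.2 and 54.0 FPKM in TMD8. The gap of the 7 genes is narrower (336, 273 and 527 FPKM, against 226, 178 and 138 FPKM). Most of their sum is HIST1H1C and HIST1H2BK. Single genes of the 7 differ, with ratios of medians of OCI-LY10 over TMD8 from 0.766 (HIST1H2BK) to 10.6 (HIST1H4H).

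Most S-phase and proliferation genes were higher in OCI-LY10, and a few were lower. Their list summed to 2491, 2748 and 2006 FPKM with shRNA 16, shRNA 10 and control shRNA in OCI-LY10, against 1475, 1399 and 1557 FPKM in TMD8. Without overlap, 17 of its 25 genes were higher in OCI-LY10 and 4 lower. The shares over genes whose mean reached 1 FPKM in either line were 21.3% higher and 26.9% lower. The 4 that were lower were CDK1, CCNB1, TOP2A and AURKA. TOP2A, a topoisomerase, had 116, 116 and 127 FPKM in OCI-LY10 with shRNA 16, shRNA 10 and control shRNA. In TMD8 it had 164, 173 and 195 FPKM. The gap was narrow in CCNB1, at 107, 115 and 131 FPKM in the same OCI-LY10 libraries against 149, 135 and 134 FPKM in TMD8. These 4 were picked by their values, so no role that they share is read from them. Of 9 replacement and other histone variants outside the clusters that reached a mean of 1 FPKM in either line, 3 were higher and 3 lower without overlap. Those higher were HIST4H4, an H4 gene, H2AFZ and H2AFY, and those lower were H2AFV, H1FX and CENPA. RMRP, at 31.7, 32.9 and 42.1 FPKM in the TMD8 columns, and RPPH1, at 13.5, 9.79 and 21.8 FPKM, were below all OCI-LY10 libraries. The same held for all 6 RNAs without a poly(A) tail, which were chosen after their values were seen, so that count is a description. Small RNA genes made up 22.5%, 28.7% and 43.3% of the FPKM sum in the TMD8 columns. The part of these in the difference between the lines was not tested.

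Among the TMD8 columns the members summed highest in column 1 and lowest in column 3, with a median log2 difference of −0.37 between column 3 and column 1, of −0.07 between column 2 and column 1 and of −0.10 between column 3 and column 2, beside 0.04, 0.00 and 0.02 over all genes tested. Ranked by the ratio of highest to lowest column among members averaging 1 FPKM or more there, HIST1H2AL came first, at 2.02, 1.63 and 0.188 FPKM in columns 1, 2 and 3, a ratio of 10.7. HIST1H4I followed at 2.81, 2.95 and 0.301 FPKM, HIST1H1E at 3.15, 0.499 and 1.29 FPKM, and HIST1H3G at 1.85, 1.63 and 0.381 FPKM. In 3 of these 4 genes column 3 was the low one. Levels near 1 FPKM in short genes rest on few fragments, and no counting error can be given. In OCI-LY10, HIST1H4I stood at 5.82, 3.68 and 6.88 FPKM with shRNA 16, shRNA 10 and control shRNA.

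The genes that make, process and handle histone mRNA and protein were compared between STAT3 shRNA and control in OCI-LY10 with the same limma fit, in which 20.3% of all genes were higher and 17.4% lower. Of 29 factors of histone gene transcription and 3′ processing tested, 9 rose and 5 fell. Those with the lowest p that rose were ATM, a checkpoint kinase, at 10.6 and 10.5 FPKM with shRNA 16 and shRNA 10 against 3.02 FPKM with control shRNA, and HINFP, a transcription factor of H4 genes, at 14.2 and 15.0 FPKM against 4.15 FPKM. NPAT rose too, to 10.8 and 12.3 FPKM against 3.34 FPKM (log2 change 1.53, SE 0.14, limma adjusted p = 0.0184). Those that fell with the lowest p were CPSF2, a subunit of the cleavage complex, at 16.6 and 16.3 FPKM against 32.2 FPKM, ZNF473, which acts in 3′ processing, at 10.0 and 9.68 FPKM against 17.3 FPKM, and LSM11, a U7 snRNP protein, at 1.89 and 2.22 FPKM against 4.79 FPKM. SLBP stood at 65.7 and 76.1 FPKM against 48.8 FPKM and did not pass (limma adjusted p = 0.0817).

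Of 12 histone mRNA decay genes 1 rose, XRN1, a 5′ to 3′ exonuclease, at 7.70 and 7.15 FPKM with shRNA 16 and shRNA 10 against 3.99 FPKM with control shRNA. In the same list 1 fell, ZCCHC11, a uridylyl transferase, at 15.9 FPKM with each shRNA against 25.1 FPKM. Of 20 histone chaperone and assembly genes 6 rose and 0 fell. They were led by CHAF1A, the large subunit of the assembly factor CAF-1, at 37.3 FPKM with each shRNA against 13.6 FPKM, followed by RBBP4, a histone-binding protein, at 39.5 and 42.4 FPKM against 17.3 FPKM, and MCM2, a helicase subunit that binds H3 and H4, at 175 and 168 FPKM against 91.8 FPKM.

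Of 9 replacement and other histone genes outside the clusters that were tested, among them the H4 gene HIST4H4, 1 rose and 3 fell. H2AFX, the H2A variant phosphorylated at DNA breaks, rose to 82.98 and 81.4 FPKM with shRNA 16 and shRNA 10 against 34.8 FPKM with control shRNA. H2AFJ, an H2A variant, stood at 2.64 and 2.43 FPKM against 10.1 FPKM, and H2AFV, an H2A.Z gene, at 34.7 and 39.6 FPKM against 90.02 FPKM. H1FX, a replication-independent linker histone, stood at 5.64 and 3.79 FPKM against 14.4 FPKM. Of 25 S-phase and proliferation genes 5 rose and 2 fell. Those that rose included GINS2, a replicative helicase subunit, at 139 and 141 FPKM against 55.3 FPKM, and MCM3, another helicase subunit, at 353 and 378 FPKM against 166 FPKM. TYMS, thymidylate synthase, fell to 44.6 and 43.0 FPKM against 84.4 FPKM, and POLE, a DNA polymerase subunit, to 8.34 and 8.66 FPKM against 13.2 FPKM. In each of the genes named in these lists both shRNA libraries lay on the same side of the control library. Most were named for a low p, which requires shRNA libraries that lie close together, so this is a description.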

How the data were processed

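Gene expression was read from 2 tables of FPKM values that the authors deposited, 1 table for OCI-LY10 and 1 for TMD8. Per the submitters' processing notes, TopHat, Bowtie2 and the build hg19 were used, with neither versions nor roles stated. Per the labels' protocols, a TruSeq RNA kit made the libraries. Not given in the sources used here are the tool that computed FPKM, its annotation, the sharing of reads between gene copies and any scaling between libraries or tables. OCI-LY10 columns were matched to samples by name. The 3 unnamed TMD8 columns were used by position, with no mean and no test. The 25277 rows gave 25275 symbols, and rows of a repeated symbol were summed.

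Genes whose mean over the 3 OCI-LY10 libraries reached 1 FPKM were tested with limma 3.58.1 in R 4.3.3 (two-sided, with a mean-variance trend) on log2(FPKM + 1). It had 1 residual and 1.64 prior degrees of freedom, and p-values were adjusted by Benjamini-Hochberg over all 11162 genes, with a threshold of 0.05. The pseudocount of 1 FPKM understates the change of low genes. The control, a single library, was taken to vary as the shRNA libraries do. Counts at 1.5-fold and of libraries that do not overlap carry no test. Tables were handled with pandas 2.3.3 and numpy 2.4.6 and plots drawn with matplotlib 3.10.9. Absolute depth is unknown, and relative depth came from ratios of values under 0.1 FPKM, so no counting interval is given.

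Members with values in every library are the 4 highest of each class, those past the threshold, the 4 with the widest range over the TMD8 columns, the 4 with the largest ratio between the shRNAs, and the polyadenylated and testis subsets; 36 in all. From each other list up to 3 genes with the lowest p in each direction are named. A gene that this rule names is not reported here. Members and lists were chosen with earlier results of these data known. Promoter sequences and gene order are from RefSeq (GRCh38.p14), used for names, neighbours and promoters only. Alternatives were scaling, pseudocount, low-value filter, small RNA genes left out, limma without the trend and leaving out a library. The 4 STAT3 ChIP-seq samples are not analysed here.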

Additional observations from a re-analysis of the deposited data

How the results depend on the processing

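Of the alternatives to the limma fit, 3 moved the count of 7 members called by more than 1.5 times. It was 4 (2 higher, 2 lower) with a pseudocount of 0.1 FPKM and 3 with no filter on low values, of which 2 were among the 7 and the other, HIST2H2BA, was below the filter. It was 12 with small RNA genes left out, with all 7 kept; otherwise it was 5 to 7. The count at 1.5-fold with both shRNAs, 10, was 5 with a pseudocount of 5 FPKM and 3 at 2-fold, and it was 25 to 31 with either shRNA library left out. The count at 1.5-fold between shRNA 16 and shRNA 10, 31, was 20 with a pseudocount of 5 FPKM and otherwise 28 to 33; these alternatives were chosen after seeing the data. The count of members above all TMD8 columns, 49, was 27 of 32 over genes that pass the minimum in TMD8, because fewer were counted, and otherwise 49 to 50. At a level of 5 FPKM, 7, 5 and 3 members passed in TMD8 columns 1, 2 and 3, and at 0.5 FPKM 41 passed in column 3. The median log2 change of the members ranged from −0.32 to 0.39 when a shRNA library was left out.

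Under the other scalings the log2 change turned below 0 in 3 named members that did not pass the test: HIST1H2AE (−0.042 with median-of-ratios scaling, −0.049 with quantile normalization), HIST1H3B (−0.051 and −0.052) and HIST1H4E (−0.031 and −0.045). Among the named genes and alternatives, 12 calls were lost, 3 of them for STAT3 (limma adjusted p of 0.0508 with a pseudocount of 0.1 FPKM, 0.0688 with no filter and 0.0673 with small RNA genes left out). With shRNA 16 left out, these 3 and HIST1H1E, HIST1H2BC, HIST1H4C and HIST1H4D, none of which passed, turned below 0, and HIST1H2AI, HIST1H3C and HIST1H2BL turned above 0 with shRNA 10 left out. The cause was not tested. No leave-one-out value of the limma count was possible, because 1 library against 1 leaves no residual degree of freedom. No paired analysis was possible because no 2 groups compared share replicate numbers in named columns. FPKM without counts limits what can be said of members near 1 FPKM.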
